A study of Homo sapiens with 6 samples.

Results

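The ephrin, semaphorin, SLIT and netrin families and their receptors were measured in RMS13 cells, a human rhabdomyosarcoma line, after the transcription factor gene GLI1 was knocked down. The 69 genes were taken by symbol, from the Eph receptors (EPHA and EPHB), ephrins (EFNA and EFNB), semaphorins of classes 3 to 7, plexins (PLXN), neuropilins (NRP), SLIT ligands, ROBO receptors, netrins (NTN), UNC5 receptors and DCC. They are 69 of the 25702 genes in the deposited table. The rule uses names alone, though the families were picked with earlier results of these data known. RNA was sequenced from 3 libraries of cells given an siRNA against GLI1 (siGLI1) and 3 of cells given an siRNA with no target (siNT2), each 72 h after transfection. All 6 libraries came from this 1 line in serum, and the sources used here give neither the siRNA sequences nor their number per group. The labels do not say whether replicates were separate cultures, so the p-values here reflect only how these libraries varied, and that variation may be technical.

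These proteins were named for steering growing axons, and they also direct cell migration, tissue boundaries and vessel growth. Ephrins are membrane-bound ligands that signal through Eph receptor tyrosine kinases at contacts between cells. Secreted class 3 semaphorins bind neuropilins, which lack a signalling domain of their own and form complexes with plexins, while most other semaphorins bind plexins directly. SLIT ligands bind ROBO receptors, and netrins act through DCC and the UNC5 receptors. In the embryo, muscle precursors and the motor axons that reach them express members of these families.

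Promoter windows of 4 members with large differences between the groups are shown here, so that their letters can be set beside the values that follow. Each runs from 250 bases before to 50 bases after a RefSeq start site on assembly GRCh38.p14, 5′ to 3′, in lower case. Capitals mark the only match to the GLI consensus GACCACCCA, or its reverse complement TGGGTGGTC, in any window of a member.
SEMA3B, chr3:50272899-50273198, plus strand: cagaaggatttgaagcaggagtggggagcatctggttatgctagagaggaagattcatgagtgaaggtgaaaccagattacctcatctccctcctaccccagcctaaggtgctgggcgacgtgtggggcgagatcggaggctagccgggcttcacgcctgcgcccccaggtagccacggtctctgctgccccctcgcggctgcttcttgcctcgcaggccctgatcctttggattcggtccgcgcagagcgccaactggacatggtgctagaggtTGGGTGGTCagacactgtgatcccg
SEMA3F, chr3:50154808-50155107, plus strand: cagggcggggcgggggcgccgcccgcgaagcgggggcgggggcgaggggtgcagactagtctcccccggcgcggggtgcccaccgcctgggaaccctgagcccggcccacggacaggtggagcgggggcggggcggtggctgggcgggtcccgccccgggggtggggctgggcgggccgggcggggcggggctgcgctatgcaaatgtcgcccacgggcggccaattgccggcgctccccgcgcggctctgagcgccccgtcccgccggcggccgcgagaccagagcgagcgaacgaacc
SLIT3, chr5:169301090-169301389, minus strand: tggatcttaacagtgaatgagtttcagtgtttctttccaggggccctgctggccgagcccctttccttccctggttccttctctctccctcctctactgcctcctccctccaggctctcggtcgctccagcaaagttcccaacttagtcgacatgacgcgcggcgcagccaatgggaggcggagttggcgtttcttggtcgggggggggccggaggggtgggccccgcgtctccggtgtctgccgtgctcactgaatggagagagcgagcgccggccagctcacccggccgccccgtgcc
SEMA3E, chr7:83649090-83649389, minus strand: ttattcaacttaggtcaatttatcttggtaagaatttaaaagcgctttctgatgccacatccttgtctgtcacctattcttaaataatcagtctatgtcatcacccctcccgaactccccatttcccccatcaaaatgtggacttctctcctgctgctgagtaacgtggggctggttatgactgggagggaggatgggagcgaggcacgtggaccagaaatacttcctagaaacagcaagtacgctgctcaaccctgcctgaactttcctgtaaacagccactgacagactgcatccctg

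The SEMA3B match begins 25 bases after that window's start site, on the reverse strand, and the other 4 SEMA3B windows did not hold it. A window was present for 59 of the 69 members (91 windows), and 1 window held the motif. Among the 35116 windows of all genes, 83 (0.236%) did. A match describes letters in a window and is not a measured binding site. The SEMA3F window shown has a GC content of 81.3% and 44 CpG dinucleotides in 300 bases, while that of SEMA3E has 47.3% and 6. Other windows had 80.7% and 53.0% (SEMA3F) and 35.7% (SEMA3E). The window of SLIT3, which fell, had 64.7% and 22 CpG. Those of SEMA3C, which rose, had 75.7% and 46, and 36.0% and 2. Those of SEMA3B, which fell, had a GC content of 57.7% to 73.7%. These are windows of a few picked genes. The GC content of windows was not compared between directions over all called members.

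GLI1, the target of the siRNA, had normalised read counts of 11962, 17837 and 12774 with siNT2 and 579.9, 906 and 1274 with siGLI1 (replicates 1, 2 and 3). Its level was 6.48% of its siNT2 mean in the siGLI1 libraries, where it fell by 4.00 on the log2 scale (adjusted p = 0.000425). Recovered reads per library ranged from 13673977 to 18947614. Of 12 muscle and rhabdomyosarcoma markers, 9 had a mean above the filter described next, MYOD1 and MYOG among them, while PAX7, MYF5 and MYF6 were at no more than 1.98. Of those 9, 4 were called higher with siGLI1 and none lower by limma: the embryonic myosin gene MYH3 (1.36), DES, which encodes desmin (0.97), the acetylcholine receptor gene CHRNA1 (0.62) and the fusion gene MYMK (1.57). The other tested markers of this list were not called: MYOG (0.24), MYOD1 (-0.04), CDH15 (-0.02), PAX3 (-0.01) and CHRNG (-0.20). The 4 called markers rose in the same comparison in which the guidance genes described below were tested. Of 8 markers each, neuronal genes held 5 with no read in any library and blood cell genes 1. Endothelial markers summed to 141 to 157 per siNT2 library and 217 to 255 per siGLI1 library, and most of that difference was PECAM1, a cell adhesion gene, at 13.2, 14.2 and 5.58 with siNT2 and 86.4, 81.8 and 90.9 with siGLI1 (called higher, 2.96). Of the other endothelial markers, TEK, VWF, KDR and EMCN had lower means with siGLI1, and CLDN5, TIE1 and CDH5 higher ones, none of them called. Neuronal markers summed to 259 to 425 with siNT2 and 361 to 594 with siGLI1, epithelial markers to 129 to 161 with siNT2 and 97.2 to 104 with siGLI1 and blood cell markers to 63.8 to 102 with siNT2 and 82.1 to 179.8 with siGLI1. Among these, SYT1 (neuronal, 1.09) and ITGAM (blood, 1.95) were called higher. The part of muscle differentiation state or other cell types in the results was not tested. In bulk RNA, fewer cells of a type and less RNA per cell cannot be told apart. Libraries differed along GC content, measured by the rank correlation across genes of GC content with a library's deviation from its group mean. In replicates 1, 2 and 3 it was -0.49, 0.70 and -0.60 with siNT2 and -0.70, -0.31 and 0.75 with siGLI1. Deviations within a group cancel out, so positive and negative values occur together. The siGLI1 values were graded, with replicate 1 about as extreme as replicate 3. siNT2 replicate 2 and siGLI1 replicate 3, which had the positive values, are called GC-rich below.

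GLI1 knockdown went with large and opposite differences among secreted ligands of these families, lower neuropilins, and 1 call among the other receptors. More receptors were called once each library's trend with GC content was removed. SLIT3, SEMA3F and SEMA3B fell furthest, and SEMA3E, SEMA3D and SEMA3C rose furthest. Values here are normalised read counts, listed in the order of replicates 1, 2 and 3. A fold change is the siGLI1 mean minus the siNT2 mean of log2(value + 1), which understates the change of low genes. Only genes whose mean over all libraries was at least 10 were tested, and 60 of the 69 members passed. The call is an adjusted p under 0.05 in a limma fit over all 15622 such genes. Of the 60 members tested, 8 rose and 10 fell, together 30.0%. Over all genes tested, 15.2% were called, 7.21% higher and 8.0% lower. The median log2 fold change was -0.21 for the members and -0.01 for all genes. The members' median was -0.000548 once each library's trend with GC content was removed and -0.38 without siGLI1 replicate 3, so its distance from 0 depends on these choices. Groups did not overlap in 29 of the 60 members (48.3%, against 36.2% of all genes), and the 18 called members were among them. All 2376 genes called in the main fit were without overlap too. For a called gene, lack of overlap is therefore a description and adds no support to the call.

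By role, 15 of 32 ligands were called, 7 higher and 8 lower, and 3 of 28 receptors. The difference between these shares was not tested. NRP1, NRP2, SEMA3E, SEMA3F, SEMA4A and SLIT3 were called in every fit that left out 1 library. A fit with a term for replicate number kept 9 of the 18 calls. It lost EFNB1, EFNB2, SEMA3C, SEMA3D, SEMA4F, SEMA6A, SEMA6C, SLIT1 and UNC5B. Dropping siNT2 replicate 1 left 3 members called higher and 6 lower, dropping siNT2 replicate 2 left 6 and 7, and dropping siNT2 replicate 3 left 6 and 6. Dropping siGLI1 replicate 1 left 6 and 8, dropping siGLI1 replicate 2 left 2 and 4, and dropping siGLI1 replicate 3 gave 9 and 15. The counts over all genes moved too, from 1127 higher and 1249 lower to 283 and 358 without siGLI1 replicate 2. Without siGLI1 replicate 3 they were 1562 and 1705. With both GC-rich libraries left out, 11 were higher and 18 lower (all genes 2236 and 2356). Of 12 new member calls there, NTN3 and SEMA6B alone were ligands. A GC correction, which removes from each library its trend of log2 values with transcript GC content, gave 14 higher and 13 lower. Over all genes it gave 2515 and 2409 of 14438. Of its 9 new member calls, NTN3 alone was a ligand. The others were EPHA2, EPHA3, EPHA8, EPHB1, EPHB3, PLXNA1, PLXNA2 and PLXND1. The gap between the shares of ligands and receptors called was smaller in both fits.

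**Figure D1:**
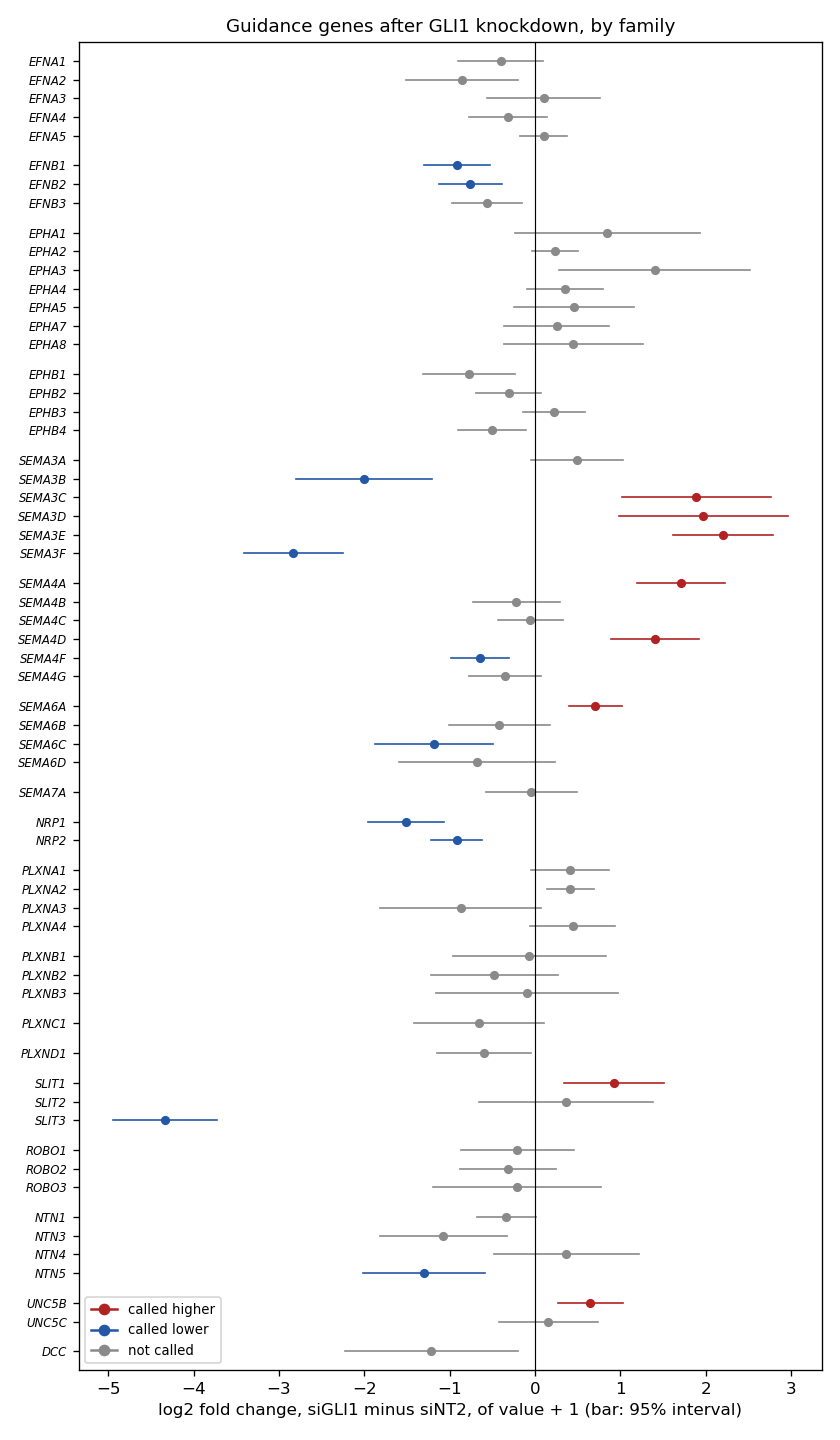
Log2 fold change (siGLI1 minus siNT2) of the 60 tested members, grouped by family, with 95% intervals from limma; colour marks the call. The class 3 semaphorins spread from -2.83 to 2.20, both neuropilins lie below 0, and SLIT3 lies furthest left at -4.34.

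Class 3 semaphorins, secreted ligands that mostly repel axons and cells, divided into genes that fell and genes that rose. SEMA3F, a ligand that acts chiefly through NRP2, had counts of 355, 488 and 344 with siNT2 and 41.0, 52.1 and 73.1 with siGLI1. Every siGLI1 library was far below the lowest siNT2 library. It went from 395 ± 80.2 to 55.4 ± 16.3 (SD, n = 3 per group) and fell by 2.83 (standard error 0.25, adjusted p = 0.000905). SEMA3B, known as a candidate tumour suppressor, had counts of 289, 565 and 392 with siNT2 and 63.7, 105 and 144 with siGLI1. The groups did not overlap, and siNT2 replicate 2 was highest in its group. SEMA3B went from 415 ± 139.6 to 104 ± 40.2 (SD, n = 3 per group) and fell by 2.00 (standard error 0.34, adjusted p = 0.00985), a call lost without siGLI1 replicate 2 (adjusted p = 0.0518). Both genes overlap an annotated antisense RNA gene in RefSeq. The sources used here do not say whether reads were counted by strand, so the counts of both may include antisense reads. The same limit applies to SEMA6A, SLIT1 and UNC5B, called members described below that also overlap annotated antisense RNA genes. SLIT1 overlaps the RefSeq gene ARHGAP19-SLIT1 as well.

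SEMA3C, a ligand for NRP1 and NRP2 that takes part in heart outflow tract development, had counts of 331, 278 and 674 with siNT2 and 1939.6, 1677 and 972 with siGLI1. All siGLI1 libraries were higher than any siNT2 library, with siGLI1 replicate 3 the lowest of them. SEMA3C went from 427 ± 215 to 1529 ± 500.4 (SD, n = 3 per group) and rose by 1.89 (standard error 0.38, adjusted p = 0.0162). The counts of SEMA3D were 75.8, 50.7 and 116 with siNT2 and 474, 351 and 167 with siGLI1, and it rose by 1.97 (standard error 0.43, adjusted p = 0.0217). In both genes siGLI1 replicate 3 lay nearest to the siNT2 libraries, and both calls were lost without siNT2 replicate 1 (adjusted p = 0.0719 and 0.0793) or siGLI1 replicate 2 (0.0851 and 0.103). SEMA3E, which binds PLXND1 without needing a neuropilin, was a low gene with counts of 6.59, 5.07 and 7.18 with siNT2 and 31.3, 32.7 and 32.6 with siGLI1. Its siGLI1 libraries were close together and far above siNT2. SEMA3E rose by 2.20 (standard error 0.25, adjusted p = 0.00221), or by 1.50 with a pseudocount of 8. Its summed reads were 20 in siNT2 and 94 in siGLI1, a depth-scaled ratio of 5.08 (95% interval 3.11 to 8.69, counting error only).

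SEMA3A, the founding member of the class and a ligand of NRP1, was not called (0.49, 95% interval -0.04 to 1.03, adjusted p = 0.191). Its counts were 287, 213 and 327 with siNT2 and 488, 370.1 and 307 with siGLI1, and siNT2 replicate 3 lay above siGLI1 replicate 3. The called class 3 members that rose and those that fell lie in separate places in the genome. SEMA3G, below the filter, was not placed in this comparison. It had counts of 1.10, 2.03 and 1.59 with siNT2 and 3.24, 5.11 and 3.95 with siGLI1. SEMA3C, SEMA3E, SEMA3A and SEMA3D follow each other on chromosome 7 in RefSeq gene order, with 3 other protein-coding genes among them, of which CACNA2D1 and PCLO were tested and neither was called (adjusted p = 0.479 and 0.973). SEMA3F and SEMA3B are on chromosome 3, with 3 protein-coding genes between them, of which SLC38A3 and GNAI2 were tested and neither was called (adjusted p = 0.190 and 0.485). The chromosome 7 genes made up 52.0%, 34.1% and 60.4% of all class 3 semaphorin counts with siNT2 and 96.4%, 93.7% and 87.0% with siGLI1. These shares are not corrected for transcript length, and they move with the same genes that were called.

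Both neuropilins, the ligand-binding receptors of class 3 semaphorins and co-receptors for VEGF, fell. NRP1 had counts of 351, 361 and 509.6 with siNT2 and 133, 131 and 159 with siGLI1. The highest siGLI1 library was well below the lowest siNT2 library. NRP1 went from 407 ± 88.7 to 141 ± 15.7 (SD, n = 3 per group) and fell by 1.51 (standard error 0.19, adjusted p = 0.00320). NRP2 had counts of 1272, 1208 and 1415 with siNT2 and 676, 665 and 715 with siGLI1, with little spread within either group. It fell by 0.92 (standard error 0.13, adjusted p = 0.00439). The summed count of both genes was 1623, 1569 and 1925 in siNT2 and 809, 795 and 874 in siGLI1, and the siGLI1 mean was 48.4% of the siNT2 mean.

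**Figure D2:**
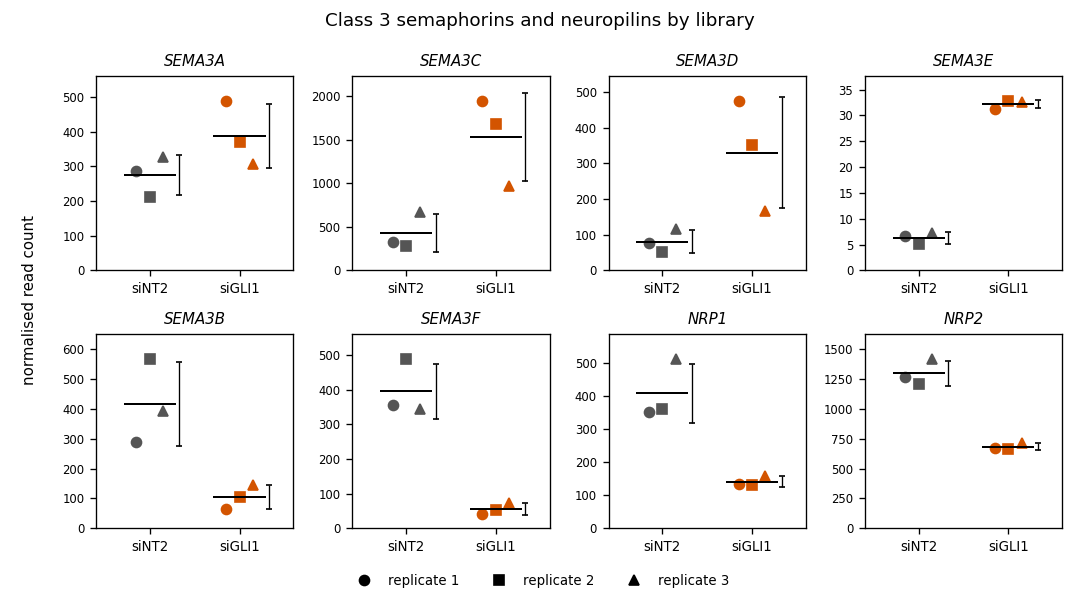
Normalised read counts in each library (points, shape by replicate) of 6 class 3 semaphorins and both neuropilins, with group means (lines) and SD (bars at the side, n = 3). Each vertical axis starts at 0. The groups overlap in SEMA3A alone of the 8 genes shown.

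The plexins, which carry the signal of semaphorins into the cell, had no limma call among 9 members tested, with log2 fold changes from -0.87 to 0.44 and adjusted p-values from 0.0567 to 0.926. At an unadjusted p under 0.05, 2 of them passed, and DESeq2 called 1 (PLXNA2) and edgeR 0. PLXNA2 had counts of 2344, 2513 and 2172 with siNT2 and 3043, 3030 and 3285 with siGLI1, without overlap (0.41, adjusted p = 0.0567). It was called higher with the GC correction (0.51, adjusted p = 0.00190) and with both GC-rich libraries left out (0.0232). In the latter fit PLXNA3 was called lower (0.0327) and PLXNA4 higher (0.0308), but neither with the GC correction alone (0.0862 and 0.118). With a term for replicate number added to the GC correction, PLXNA3 was called and PLXNA4 was not. PLXNB2, a receptor for class 4 semaphorins, had the highest counts of any member, 7161, 11797 and 7580.4 with siNT2 and 4068, 6135 and 9475 with siGLI1 (-0.48, 95% interval -1.22 to 0.26). The groups overlapped, and the spread within each was wide. PLXNB2 was called lower with both GC-rich libraries left out (-0.56, adjusted p = 0.0337) but not with the GC correction (adjusted p = 0.202). PLXNA1, a partner of neuropilins, had counts of 4087, 5478 and 4568 with siNT2 and 4844, 6482 and 7706 with siGLI1 (0.41, adjusted p = 0.195), and was called higher with the GC correction (0.63, adjusted p = 0.00187). PLXND1, the SEMA3E receptor, had counts of 3668, 5163 and 3467 with siNT2 and 2044, 2614 and 3563 with siGLI1 (-0.60, 95% interval -1.15 to -0.04, adjusted p = 0.132). It was called lower with the GC correction (-0.35, adjusted p = 0.00860) and without siGLI1 replicate 3 (adjusted p = 0.0346). PLXNC1, the SEMA7A receptor, was low, from 41.0 ± 10.3 to 26.4 ± 10.9 (SD, n = 3 per group), and was not called (-0.66, adjusted p = 0.214). In 7 of the 9 plexins the GC-rich libraries siNT2 replicate 2 and siGLI1 replicate 3 held the highest value of their groups.

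Class 4 semaphorins, membrane-bound ligands of plexins with roles in immune cells as well as neurons, went in both directions. SEMA4A had counts of 37.3, 36.5 and 31.9 with siNT2 and 90.7, 125 and 143 with siGLI1, and every siGLI1 library was more than any siNT2 library. It went from 35.2 ± 2.93 to 119.5 ± 26.6 (SD, n = 3 per group) and rose by 1.71 (standard error 0.22, adjusted p = 0.00345). SEMA4D, the ligand of PLXNB1, had counts of 37.3, 34.5 and 27.1 with siNT2 and 72.4, 94.1 and 101 with siGLI1. The groups were apart, and it rose by 1.40 (standard error 0.22, adjusted p = 0.00730), a call lost without siGLI1 replicate 2 (adjusted p = 0.0526). SEMA4D shares part of its locus with SECISBP2 in RefSeq, so some reads may belong to that gene. SEMA4F had counts of 191, 206 and 186 with siNT2 and 125, 126 and 120.5 with siGLI1 and fell by 0.64 (standard error 0.15, adjusted p = 0.0250). Its groups were narrow and apart, yet the call was lost without any 1 of the libraries other than siGLI1 replicate 3 (adjusted p 0.0645 to 0.112). SEMA4C held most of the class's counts, from 1987 ± 343 to 1904 ± 222 (SD, n = 3 per group), and was not called (-0.05, 95% interval -0.44 to 0.33). Its sign turned with the GC correction (0.15). SEMA4B and SEMA4G were not called either.

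Class 6 semaphorins are transmembrane ligands of A-type plexins. SEMA6A had counts of 2341, 1985 and 2257 with siNT2 and 3963, 3537 and 3239 with siGLI1, with no overlap, and rose by 0.70 (standard error 0.13, adjusted p = 0.0142). This call was lost without siNT2 replicate 1 (adjusted p = 0.0571) or siGLI1 replicate 2 (0.0788). SEMA6C had counts of 969, 1584 and 1014 with siNT2 and 346, 533 and 717 with siGLI1 and fell by 1.18 (standard error 0.30, adjusted p = 0.0358). siNT2 replicate 2 was well above the other siNT2 libraries, and the call was lost without any 1 of the libraries other than siGLI1 replicate 3 (adjusted p 0.0633 to 0.124). SEMA6B, the highest of the class, went from 5058 ± 1144 to 3851 ± 1297 (SD, n = 3 per group) and was not called (-0.42, adjusted p = 0.301), nor with the GC correction (-0.11, adjusted p = 0.414). It was called lower without siGLI1 replicate 3 (adjusted p = 0.0480) and with both GC-rich libraries left out (0.0156). SEMA6D was not called. SEMA7A, a lipid-anchored semaphorin, stood at -0.04 (95% interval -0.58 to 0.49), not called, which turned above 0 with the GC correction (0.16).

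Of the B-type ephrins, ligands that span the membrane and can signal back into the cell that carries them, EFNB1 and EFNB2 fell. EFNB1 had counts of 193, 229 and 215 with siNT2 and 99.4, 110.4 and 127 with siGLI1. All siGLI1 values lay below all siNT2 values. It went from 213 ± 18.1 to 112 ± 14.1 (SD, n = 3 per group) and fell by 0.92 (standard error 0.17, adjusted p = 0.0123), a call lost without siGLI1 replicate 2 (adjusted p = 0.0705). EFNB2, which marks arterial vessels and takes part in somite boundary formation, had counts of 1012, 914 and 1240.0 with siNT2 and 609, 679 and 569.9 with siGLI1. The groups did not overlap, and it fell by 0.76 (standard error 0.16, adjusted p = 0.0192). That call was lost without siNT2 replicate 1 (adjusted p = 0.0788), siNT2 replicate 3 (0.0595) or siGLI1 replicate 2 (0.0709). EFNB3 was also lower in each siGLI1 library but did not pass the test (-0.56, adjusted p = 0.0733). The summed count of the 3 genes was 1295, 1249.5 and 1561 in siNT2 and 778, 849.6 and 770.4 in siGLI1, with EFNB2 holding 77.1% and 77.5% of it.

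None of the 5 A-type ephrins, which are held to the membrane by a lipid anchor, was called by limma, edgeR or DESeq2 (log2 fold changes -0.86 to 0.10), and EFNA2 alone had an unadjusted limma p under 0.05. EFNA5, the highest of them, had counts of 928, 924 and 981 with siNT2 and 1053, 1002 and 988 with siGLI1 (0.10, 95% interval -0.17 to 0.38). No Eph receptor was called by limma or edgeR among 11 tested, while 3 had an unadjusted limma p under 0.05 (EPHA3, EPHB1 and EPHB4) and DESeq2 called EPHA3 and EPHB1. All 7 EPHA receptors had a log2 fold change above 0 (0.23 to 1.40), and 3 of 4 EPHB receptors one below 0 (-0.77 to 0.22). EPHA2, the most abundant EPHA receptor, had counts of 2151, 2238 and 2136 with siNT2 and 2433, 2549 and 2697 with siGLI1 (0.23, adjusted p = 0.206). It was called higher with the GC correction (0.43, adjusted p = 0.0440). So were EPHA8 (0.70, adjusted p = 0.0101) and EPHB3 (0.45, adjusted p = 0.0199), while EPHB1 was called lower (-0.72, adjusted p = 0.0444). EPHA5 was called higher without siGLI1 replicate 3 (adjusted p = 0.0370) and with both GC-rich libraries left out (0.0149). EPHA3, an A-type receptor that binds EFNA5, had counts of 47.2, 22.3 and 81.3 with siNT2 and 168, 133 and 74.1 with siGLI1, and siNT2 replicate 3 lay above siGLI1 replicate 3. Its log2 fold change of 1.40 was not called (95% interval 0.28 to 2.52, adjusted p = 0.0916), but DESeq2 (adjusted p = 0.0255), the GC correction (0.0228) and the fit without siGLI1 replicate 3 (0.0415) did call it. EPHB4, the receptor that pairs with EFNB2 in vessels, had counts of 1504, 1851 and 1594 with siNT2 and 978, 1116 and 1415 with siGLI1 (-0.51, 95% interval -0.90 to -0.11, adjusted p = 0.0872). With the GC correction EPHB4 was at -0.27 (adjusted p = 0.0809), and it was called lower without siGLI1 replicate 3 (0.0259) and with both GC-rich libraries left out (0.00852).

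**Figure D3:**
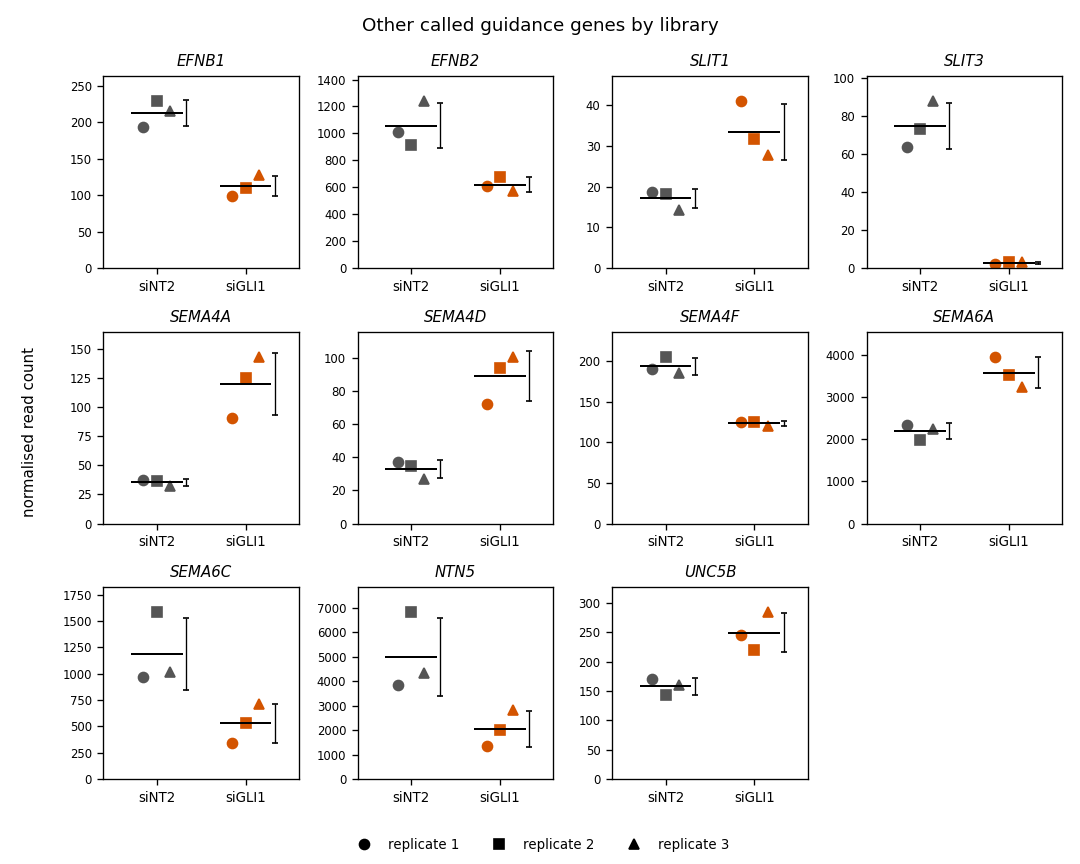
Normalised read counts in each library of the other 11 called members, drawn as for the class 3 semaphorins (points by replicate, line for the mean, bar for the SD, n = 3, axes from 0). The groups do not overlap in any of the 11, as in every gene called in the main fit, and SLIT3 is close to 0 in all siGLI1 libraries.

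Of the SLIT ligands, SLIT3 fell to a few reads per library. It had 58, 72 and 110 reads with siNT2 but 2, 3 and 3 with siGLI1. In normalised counts these were 63.7, 73.0 and 87.7 with siNT2 and 2.16, 3.07 and 2.96 with siGLI1, and the siGLI1 values are near that of 3 reads (2.39 to 3.29), the upper limit that a count of 0 allows. The depth-scaled ratio of summed reads was 27.8-fold lower in siGLI1 (95% interval 13.9 to 65.1, counting error only). SLIT3 fell by 4.34 in the fit (standard error 0.26, adjusted p = 0.000277), a value that depends on the pseudocount, with -2.94 at a pseudocount of 8. SLIT3 spans other annotated genes in RefSeq, including the microRNA gene MIR218-2 and antisense RNA genes. SLIT1 had counts of 18.7, 18.3 and 14.4 with siNT2 and 41.0, 31.7 and 27.7 with siGLI1 and rose by 0.92 (standard error 0.25, adjusted p = 0.0477), but the call was lost without any 1 of the libraries other than siGLI1 replicate 3 (adjusted p 0.0860 to 0.154). SLIT2 was not called (0.36, adjusted p = 0.611). SLIT3 made up 65.4% of SLIT counts in siNT2 and 4.00% in siGLI1.

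The ROBO receptors of SLIT ligands showed no call by limma, edgeR or DESeq2 among 3 tested, nor an unadjusted limma p under 0.05. ROBO1, which held most of the ROBO counts, was at 1301, 951 and 1599.7 with siNT2 and 1467, 1179 and 747 with siGLI1, and the groups overlapped (-0.21, 95% interval -0.86 to 0.45). Its value was 0.07 without siGLI1 replicate 3. ROBO4, a receptor of endothelial cells, was below the filter in these cells.

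Among the netrins, secreted ligands that attract or repel axons, NTN5 had by far the highest counts. They were 3838, 6825 and 4324 with siNT2 and 1341, 2007 and 2809.8 with siGLI1, and although the spread was wide the groups did not overlap. NTN5 went from 4996 ± 1603 to 2053 ± 735 (SD, n = 3 per group) and fell by 1.30 (standard error 0.31, adjusted p = 0.0290). The call was lost without any 1 of the libraries other than siGLI1 replicate 3 (adjusted p 0.0508 to 0.111). RefSeq places the pseudogene SEC1P across part of NTN5, so its counts may include other transcripts. NTN3 had counts of 115, 181 and 108 with siNT2 and 40.0, 70.5 and 83.0 with siGLI1, lower in each siGLI1 library, and was not called (-1.08, adjusted p = 0.0612). DESeq2 (adjusted p = 0.0142), the GC correction (0.0103) and the fit without siGLI1 replicate 3 (0.0312) called it lower. NTN1, the founding netrin, and NTN4 were not called.

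Of the netrin receptors, UNC5B, which mediates repulsion and is known from vessels and cell survival, had counts of 171, 143 and 161 with siNT2 and 245, 219.8 and 284 with siGLI1. The groups did not overlap, and it rose by 0.65 (standard error 0.17, adjusted p = 0.0377), but the call was lost without any 1 of the 6 libraries (adjusted p up to 0.103). DCC, the receptor of netrin attraction, was low, with counts of 19.8, 23.3 and 24.7 with siNT2 and 11.9, 4.09 and 14.8 with siGLI1. It was lower in each siGLI1 library but was not called (-1.22, 95% interval -2.23 to -0.20, adjusted p = 0.102). It was called lower without siGLI1 replicate 3 (adjusted p = 0.0461) and with both GC-rich libraries left out (0.0397). UNC5C was not called.

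The 9 members below the filter were EPHA10, EPHA6, EPHB6, ROBO4, SEMA3G, SEMA5A, SEMA5B, UNC5A and UNC5D, with values from 0 to 14.2. EPHA10 was listed at 0 in all siNT2 libraries and at 1.08, 5.11 and 3.95 in siGLI1. SEMA5B reached 1.01 at most in siNT2 and was 4.32, 4.09 and 5.93 in siGLI1. A count of 0 allows up to 2.39 to 3.29 in these units, so both genes lie near the limit of this depth. With no filter on low values, limma called both higher.

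**Figure D4:**
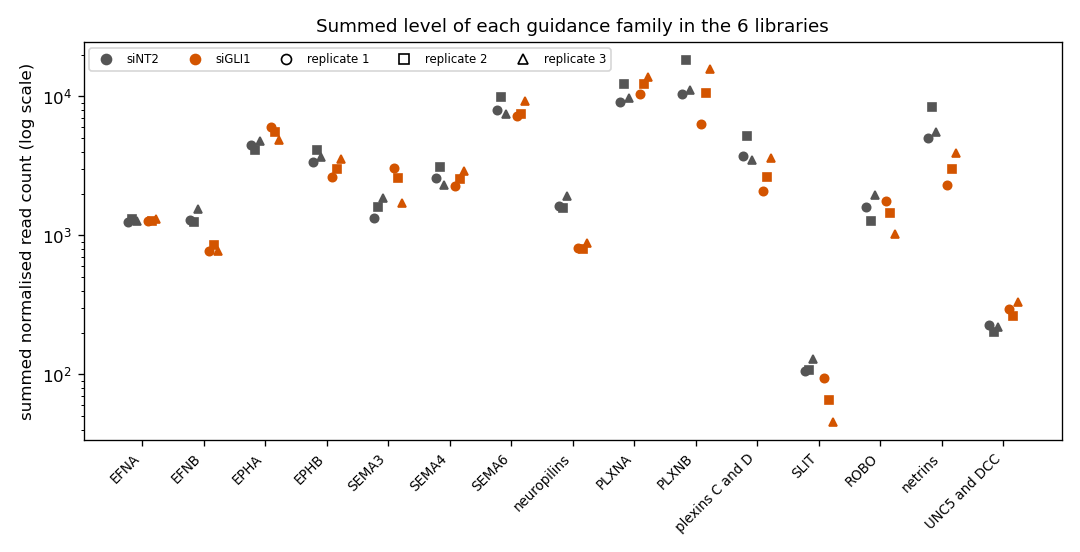
Summed normalised read count of the families named on the axis (classes 5 and 7 of the semaphorins are not drawn) in the 6 libraries (log scale), grey for siNT2 and orange for siGLI1, shape by replicate. The B-type ephrin, neuropilin, SLIT and netrin sums with siGLI1 all lie below those with siNT2, the EPHA sum and that of UNC5 and DCC lie above, and the groups overlap in the other families drawn.

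Divided by transcript length, NTN5 (2721), PLXNB2 (1386) and SEMA6B (1269 counts per kilobase) had the highest siNT2 levels, and kept ranks 1, 2 and 3 in siGLI1. SEMA6A moved from rank 10 to 8 and SEMA6C from 12 to 24 of 69. The order depends on the length used: with the median transcript length in place of the longest, PLXND1 came first and NTN5 was at rank 7.

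Fold changes of the members moved with GC content. Across the 60 tested members the Spearman correlation between transcript GC content and log2 fold change was -0.38 (Pearson -0.37), and across 14438 genes it was -0.29. Genes share libraries and are not independent replicates. The 8 members that rose had a median GC content of 50.8% (34.9% to 60.2%) and the 10 that fell one of 57.2% (44.7% to 67.0%), beside 58.4% for the 42 not called. With the GC trend of each library removed, all 18 calls were kept, and SEMA3C (1.71), SEMA3D (1.71), SEMA3F (-2.60) and SEMA3B (-1.74) kept most of their fold changes. Of the 60 tested members, 27 had their highest values in siNT2 replicate 2 and siGLI1 replicate 3 (median GC content 62.5%) and 19 their lowest (44.3%).

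**Figure D5:**
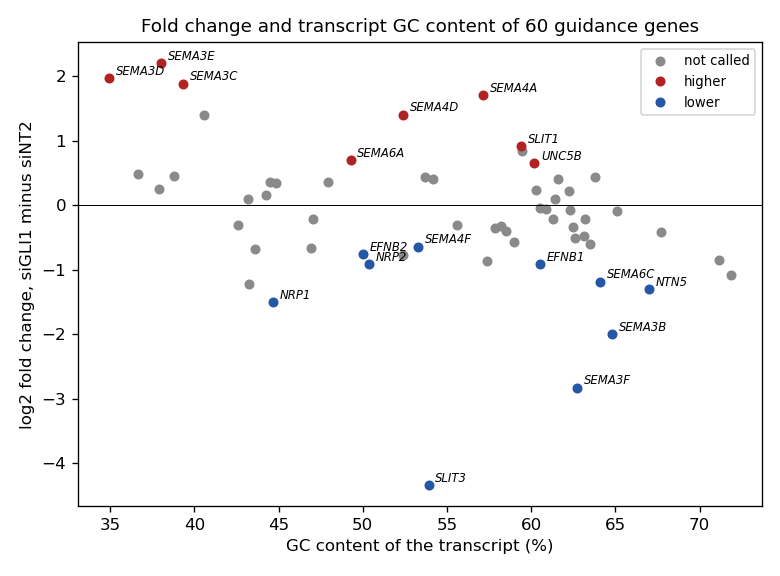
Log2 fold change (siGLI1 minus siNT2) against the GC content of the transcript for the 60 tested members, coloured by call, with called genes named. SEMA3C, SEMA3D and SEMA3E sit at the AT-rich end and SEMA3B, SEMA3F and NTN5 at the GC-rich end, while NRP1, NRP2 and SLIT3 lie between 44.7% and 53.9%.

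The heptamer GCACCTC occurred in the 3' untranslated region of 20.9% of all genes that fell and 8.55% of other genes tested. How this heptamer was chosen is not given here, so these shares are a description only. They were not adjusted for the length of the region. It was present in 12 of 60 tested members (20.0%) and in 9.55% of 13174 genes. EFNB2 and SEMA6C carried it among the 10 members that fell, and SEMA3E and UNC5B among the 8 that rose. It was absent from SLIT3, SEMA3F, SEMA3B, NRP1 and NRP2. Its part in the results was not tested.

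Partners and effectors of these receptors, such as adaptors and the CRMP proteins that link semaphorin signals to the cytoskeleton, were read from a list of 69 genes. Of 59 tested, 8 rose and 3 fell (18.6% called, against 15.2% of all genes), with a median log2 fold change of 0.13. ABLIM1, an actin-binding protein whose worm counterpart acts in netrin guidance, had counts of 1298, 1115 and 1423 with siNT2 and 3155, 2950.4 and 2594 with siGLI1 and rose by 1.18 (standard error 0.15, adjusted p = 0.00276). The chemokine receptor gene CXCR4 rose by 1.24 (adjusted p = 0.000928). Both calls held without any 1 library. SRGAP1, which acts below ROBO receptors, rose by 0.68 and CRMP1 by 0.67 (adjusted p = 0.0139 and 0.00999), both lost without siNT2 replicate 1 or siGLI1 replicate 2 (adjusted p up to 0.0917). RGS3, a regulator below B-type ephrins, rose by 0.64 and the actin regulator gene VASP by 0.58 (adjusted p = 0.0161 and 0.0189).

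The 3 effectors that fell included 2 CRMP family members, so this family did not move in 1 direction. DPYSL2 had counts of 1072, 1176 and 1277 with siNT2 and 754, 733 and 764 with siGLI1 and fell by 0.64 (standard error 0.13, adjusted p = 0.0162). DPYSL5 fell by 1.06 and RGMA, a ligand of neogenin, by 0.74 (adjusted p = 0.0236 and 0.0249). Neither DPYSL2 nor RGS3 was called without siNT2 replicate 1, siNT2 replicate 3 or siGLI1 replicate 2, nor DPYSL5 without siNT2 replicate 1, siNT2 replicate 2 or siGLI1 replicate 2. RGMA and VASP were called in only 1 of the 6 fits that left out a library, that without siGLI1 replicate 3 (adjusted p in the others up to 0.124, and up to 0.0864 for RGS3, 0.0967 for DPYSL2 and 0.112 for DPYSL5). The list had 2 higher and 0 lower without siGLI1 replicate 2, and the same counts without siNT2 replicate 1. At an unadjusted p under 0.05 these limma fits had 3 and 4 lower. Dropping siNT2 replicate 2 left 5 higher and 1 lower, dropping siNT2 replicate 3 left 4 and 1, dropping siGLI1 replicate 1 left 6 and 2, and dropping siGLI1 replicate 3 gave 11 and 4.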

How the data were processed

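RNA from 6 libraries was measured, 3 per group. Per the submitters' processing notes, the tools were Bowtie2 2.3.3.1, Subread 1.6.4 with featureCounts, DESeq2 2.11.40.6, Trim Galore 0.4.5 and bcl2fastq, on build hg19. The sources used here name no annotation or strand setting. The authors deposited a single table in signal units: each gene's reads scaled by a size factor for its library, with no length scaling. All values (100.0%) were whole multiples of 1 read within 0.01 reads, so reads were recovered for edgeR 4.0.16 and DESeq2 1.42.0. edgeR called 1182 genes higher and 1200 lower, limma 1127 and 1249.

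Symbols came from RefSeq (GRCh38.p14, for names and gene order; 23696 of 25702 Entrez IDs matched). Promoter sequences are RefSeq's; transcript length, GC content and 3' untranslated regions are from GENCODE release 29. limma 3.58.1 (trend) in R 4.3.3 tested log2(value + 1), group as the only term, over genes with a mean of 10 or more, with Benjamini-Hochberg adjustment. Figures used matplotlib 3.10.9. The fit was tested on simulated data. No pair of libraries agreed within sampling noise. Precision follows from the depth: 3 reads equal 2.39 to 3.29 counts. Intervals of fold changes are limma's, from the spread between libraries, and those of the read ratios of SLIT3 and SEMA3E cover counting error only. The members and gene lists were chosen with earlier results of these data known. Named genes were all called members, the highest member of each family and any with an absolute log2 fold change of 1 or more, and up to 6 called effectors in each direction. Outside this rule, PLXNA2 and some low members are given with their values, and other members are named with no full statistics. Alternatives varied the pseudocount, filter, scaling, test, GC correction, replicate block and libraries.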

Additional observations from a re-analysis of the deposited data

How the results depend on the processing

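Calls higher and lower were 2515 and 2409 for all genes, 14 and 13 for the guidance genes and 16 and 8 for the effectors with the GC correction, 462 and 508 for all genes, 3 and 6 for the guidance genes and 2 and 0 for the effectors with the replicate block, and 2012 and 1923 for all genes, 12 and 13 for the guidance genes and 13 and 7 for the effectors with the replicate block and GC correction together. Leaving out both GC-rich libraries, chosen after seeing the data, gave 2236 and 2356 for all genes, 11 and 18 for the guidance genes and 14 and 7 for the effectors. Leaving out 1 library gave 283 to 1562 higher and 358 to 1705 lower for all genes, 2 to 9 and 4 to 15 for the guidance genes, and 2 to 11 and 0 to 4 for the effectors. The cause of these shifts was not tested. Counts with other pseudocounts, filters, TMM scaling, edgeR and DESeq2 stayed within 1.5 times. With the replicate block, limma called 0 effectors lower and 4 at an unadjusted p under 0.05, and edgeR and DESeq2 without the block called 3 each.

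Whether replicate numbers pair the samples is not settled. Same-numbered libraries had correlations of 0.49, -0.11 and -0.61 between their deviations from the group means, and not every library correlated best with its own number. The highest correlation (0.76) was between the GC-rich libraries, siNT2 replicate 2 and siGLI1 replicate 3. With the GC correction the same-numbered values were 0.34, 0.02 and -0.39, and those GC-rich libraries still had the highest (0.55). Neither set of values can exclude pairing, because trends shared between differently numbered libraries could mask it. Same-numbered libraries share a prefix in their sample codes, whose meaning the labels do not give. The block without the GC correction kept 9 of the 18 member calls and lost EFNB1, EFNB2, SEMA3C, SEMA3D, SEMA4F, SEMA6A, SEMA6C, SLIT1 and UNC5B, and with the GC correction it kept all 18. With the GC correction all 18 called members were kept. None of the called guidance genes, nor of the called effectors named in the text, changed sign under any alternative run. Of genes not called, ROBO1 ranged from -0.42 to 0.0662 with 1 library left out, above 0 only without siGLI1 replicate 3. SEMA4C was at 0.15 with the GC correction, with or without the replicate block, and ranged from -0.17 to 0.0772 with 1 library left out, above 0 without siNT2 replicate 2 and siGLI1 replicate 1. SEMA7A was at 0.16 with the GC correction, with or without the block, at 0.0356 without both GC-rich libraries, and ranged from -0.25 to 0.12 with 1 library left out, above 0 without siNT2 replicate 2, siNT2 replicate 3 or siGLI1 replicate 1. The median of the guidance genes was -0.000548 with the GC correction and -0.38 without siGLI1 replicate 3. When low genes were kept in, limma also called EPHA10 and SEMA5B higher and no longer called SLIT1.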
